A study of Mus musculus with 4 samples.

Results

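The genes described here encode proteins that modify or remodel chromatin, compared between cultured mouse spleen cells with and without imatinib. They were chosen by name alone: every non-control probe whose gene name begins with Hdac, Sirt, Kdm, Dnmt, Ezh, Prmt or Smarc, or with Chd or Arid followed by a digit. This rule took 125 probes for 82 genes out of 39429 probes with 31829 gene names. By class these were 16 Hdac, 10 Sirt, 23 Kdm, 6 Dnmt, 4 Ezh, 12 Prmt, 20 Smarc, 14 Chd and 20 Arid probes. Not every member is an enzyme: Dnmt3l and most Arid and Smarc members bind DNA or serve as subunits, so the set is best read as enzymes together with their partners of the same name.

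The cells were splenocytes of 8-week-old female C57BL/6 mice, not sorted by type per the labels, and grown for 72 h. Both groups received IL-4 and LPS, which together activate B cells and start class switching. Imatinib, an inhibitor of the ABL, KIT and PDGFR kinases, was added at 10 µM to the imatinib group and left out of the control group. Each group was measured on 2 Agilent arrays of 1 colour, and the study asked, per its design text, which genes change with imatinib in cells whose class switching it reduces. Separate mice or cultures are not named in the labels for the 2 samples of a group, so the p-values measure only the spread between these samples, which may be technical.

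DNA in the nucleus is wrapped around histones, and chemical marks on histone tails and on the DNA set how open a stretch of chromatin is. Histone deacetylases (Hdac) and sirtuins (Sirt) remove acetyl groups, lysine demethylases (Kdm) remove methyl groups from histones, and arginine methyltransferases (Prmt) and Ezh proteins add them. DNA methyltransferases (Dnmt) mark cytosines, and the Smarc, Chd and Arid families include the motors and subunits of complexes that move nucleosomes. In activated B cells several of these proteins take part in germinal centre formation, class switching and the turn towards plasma cells.

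The array reads each transcript through 60-base probes, and several findings turn on whether separate probes of a gene moved together. The first 30 bases of these probes are given 5′ to 3′ as the scanner files hold them, for a selection of genes with a large change or with several probes. Capitals mark a run of a repeated 2-base unit of at least 12 bases, which only 1 of the 125 member probes holds.
Prmt1, A_55_P2021821: gggtacatcgtgactgtgtttttcataact
Prmt1, A_51_P389531: acgtgtatggctttgatatgtcctgcatta
Prmt5, A_52_P677147: acagcacagaaggtgtagaacatctgctgg
Prmt7, A_51_P298538: tggagacatcaccatggagtttaggcttgc
Prmt7, A_55_P2168014: cacaggcctcttgtcaatgatggcagttac
Prmt2, A_55_P2083654: ccgcgtgtaatgtctatgggtaaattatat
Hdac9, A_55_P1970755: ggtgatctcttgttttgtgttgtaaatata
Kdm3a, A_55_P1982578: ggactggcattatatagcagaaataactac
Kdm4d, A_55_P1970915: aaagccacttgagagtcacagatgacctct
Ezh1, A_55_P2082869: ttcttgcactttaaagtcctgtggcttgtg
Ezh1, A_55_P2155942: taaaacatgtcggttctagactgagctcag
Smarca4, A_55_P2154684: ccagcgggtatgtcagtgtcactggagtca
Smarca4, A_55_P2154690: ttctcgccaccgcaaggaggtagactacag
Smarcc1, A_55_P2131153: gtgtgtatctctctctgTCTCTCTCTCTCt
Smarcc1, A_55_P1984622: tgaagaaagaaaaatcaagtccttggtagc
Smarcc1, A_52_P312837: ctggagactataatggacagagagaaagag
Of the 50 pairs of probes that share a member gene, 1 pair overlapped, the Hdac6 pair, by 48 bases. The other pairs read separate stretches of their gene's RNA.

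Arginine methyltransferases were mostly lower with imatinib and Ezh1 was higher. The Dnmt class held 1 change, a lower one. The remaining classes held changes in both directions, with Smarca1 as the only higher Smarc probe. A probe was tested where the scanner software marked it as well above background on both arrays of either group. Of the 125 member probes 117 passed this filter and 116, for 77 genes, were tested, since 1 Hdac1 probe carried a flagged spot on imatinib array 2. By limma with Benjamini-Hochberg adjustment over all 25375 probes tested, 16 member probes were higher with imatinib and 23 were lower at an adjusted p under 0.05. That is 33.6% of the members tested, against 41.9% of all probes. The share higher was 13.8% against 19.3%, and the share lower was 19.8% against 22.5%. These shares are given side by side, and the difference between them was not tested. The values of the 2 groups did not overlap for 84 members (72.4%), against 73.7% of all probes. The median log2 difference, imatinib minus control, was -0.02 over the members and 0.00 over all probes tested. Changes were small: 3 of the 116 members tested reached 2-fold (Hdac9, Kdm6b and Kdm4d), all of them called, whereas 7.86% of all probes did, called or not. Among the higher calls, Smarca1 passed the filter through the imatinib group alone, where it is high, so it had to differ and its call adds no support. Counted by gene, with the probe of highest mean signal standing for it, 14 of 77 genes were higher and 14 were lower. With 2 arrays a group, an exact two-sided permutation test of a single gene cannot give a p below 0.333.

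**Figure D1:**
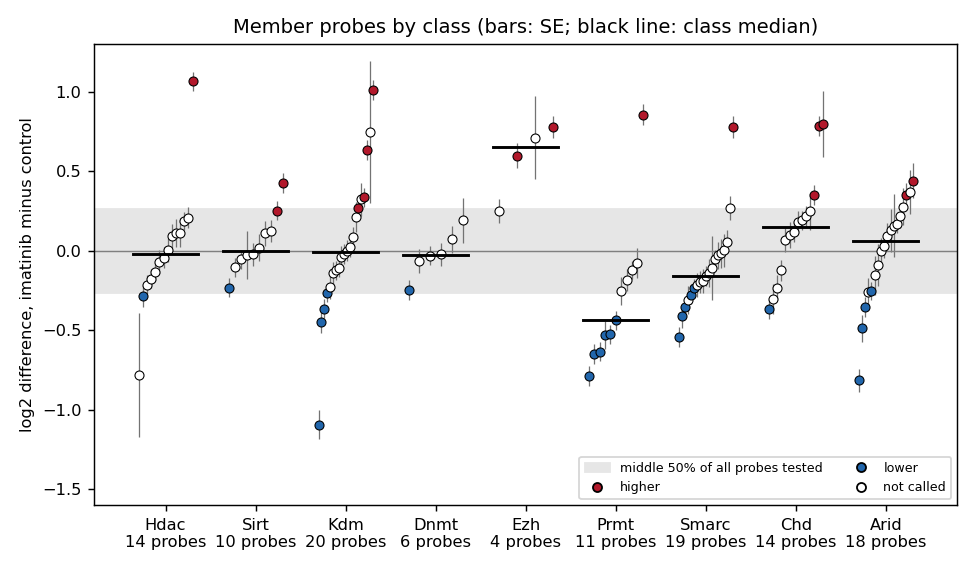
Log2 difference (imatinib minus control) of the 116 tested member probes by class, with the SE of the limma fit as bars, the class median as a black line and the middle 50% of all 25375 probes as a grey band. Most points lie in or near the band; 10 of 11 Prmt probes lie below 0 and all 4 Ezh probes above it.

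The scaling between arrays bears on every count of direction. Values here are log2 signals minus the 75th percentile of the same array. Centring on the median instead shifted all probes together by -0.19 at their median, and scaling to the spike-in probes by -0.28. Under spike-in scaling 35 of the 116 member differences turned from positive to negative and 0 the other way. The members split with median centring and spike-in scaling, in that order, into 8 higher and 44 lower, or 8 higher and 59 lower. All 23 lower calls stayed below 0 under both and under quantile normalization, and 14 of the 16 higher calls stayed above 0 (the exceptions were Sirt2 and Kdm5b). The 12 calls that held under every alternative that tested them were Hdac9, Kdm3a, Kdm6b, Ezh1 (A_55_P2082869), Prmt2, Chd3 and, with the same reservation, Smarca1 among the higher, and Kdm4d, Prmt1 (A_51_P389531), Prmt5, Prmt7 (A_55_P2168014) and Arid3b (A_55_P2123993) among the lower. The other 27 were lost when some single array was left out, and 24 of them also without the filter on dim probes. Losses named per gene below cover the scalings and the single arrays, not the filter or a block for the replicate number.

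Marker RNA of several cell types differed between the groups. All 10 B cell markers were above background, and 5 were lower and 1 was higher with imatinib, with summed levels on the linear scale of 271 and 281 against 315 and 294 in the controls. T cell markers were higher for 10 of 12, with summed levels of 49.5 and 49.6 against 24.4 and 23.7. Of 9 tested macrophage markers 4 were higher and 1 was lower (10.1 and 10.2 against 7.61 and 7.07), with C1qa, C1qc and Vsig4 above background on no array. The lower one, Itgam (difference -1.12), was read by a probe with a 20-base CA run and enters the summed level. The part of the repeat in its value was not tested. Among the other lists, 5 of 7 neutrophil, 2 of 4 NK, 4 of 4 mast cell or basophil and 2 of 5 dendritic cell markers were higher, 1 each of the neutrophil, NK and dendritic cell markers was lower, and neither of the 2 erythroid markers was called. The summed level of the neutrophil markers did not follow that count, at 3.01 and 3.32 with imatinib against 3.53 and 3.28. It was 4.94 and 4.96 against 3.80 and 3.67 for NK cells, 0.559 and 0.553 against 0.235 and 0.218 for mast cells or basophils, and 106 and 108 against 95.03 and 81.8 for dendritic cells. For the erythroid markers it was 0.056 and 0.068 against 0.055 and 0.044. Among the higher calls, Cpa3 and Mcpt8 (mast cells or basophils) and Itgax (dendritic cells) passed the filter through the imatinib group alone. They are high in that group, so they had to differ and their calls add no support. S100a9 (neutrophils), above background on 3 arrays, also passed only through the imatinib group, where it is high. Its call adds no support either. Genes of dividing cells were lower for 11 of 13 (230 and 227 against 294 and 293). The part of these shifts in the differences below was not tested. In bulk RNA, fewer cells of a type and less RNA per cell cannot be told apart.

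Arginine methyltransferases were mostly lower. Of 11 tested Prmt probes 6 were lower (54.5%, against 22.5% of all probes) and 1 was higher (9.09%, against 19.3%). The class median was -0.44. By gene, with the probe of highest mean signal standing for it, 4 of 7 were lower and 1 was higher. Prmt1 makes most of the asymmetric dimethylarginine of the cell, and Prmt5 is the main source of the symmetric form, which it places on histones and splicing proteins. Prmt1 was lower on both of its probes. On A_55_P2021821 its normalised log2 signal was 5.40 and 5.41 with imatinib and 5.87 and 5.81 without, so that the log2 difference was -0.44 (SE 0.06, adjusted p = 0.0101). On A_51_P389531 the values were 3.06 and 3.07 against 3.68 and 3.71, a difference of -0.63 (SE 0.06, adjusted p = 0.0045). On either probe both imatinib arrays lay below both controls. Prmt5 stood at 2.11 and 2.16 with imatinib and at 2.80 and 2.76 without, or 1.57-fold lower (log2 difference -0.65, SE 0.06, adjusted p = 0.0048). For Prmt5 too, both imatinib arrays lay below both controls.

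Prmt3, a cytoplasmic enzyme that methylates a ribosomal protein, was 1.44-fold lower, with values of -1.04 and -1.15 against -0.65 and -0.49 (difference -0.53, SE 0.09, adjusted p = 0.0147). Prmt6, which places a repressive mark on histone H3, was lower on A_55_P2066081 at -0.56 and -0.52 against -0.01 and -0.02 (difference -0.52, SE 0.06, adjusted p = 0.0066). Its 2 other probes differed by -0.12 and -0.08 and were not called. Prmt7, which makes monomethylarginine, had 1 called probe of 2. On A_55_P2168014 it stood at -2.26 and -2.34 against -1.52 and -1.51, a difference of -0.79 (SE 0.06, adjusted p = 0.0034). On A_51_P298538 the difference was -0.25 (SE 0.09, adjusted p = 0.0859), with both imatinib arrays still below both controls. The gene listed as Prmt10, now Prmt9 in RefSeq, differed by -0.18 and was not called, and Prmt8, a brain enzyme, was above background on no array.

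Prmt2, a relative with weak activity that acts as a coregulator of nuclear receptors, moved the other way. It stood at 0.87 and 0.77 with imatinib and at -0.04 and -0.03 without, a 1.81-fold rise (log2 difference 0.86, SE 0.07, adjusted p = 0.0034). It was the only Prmt probe of the 11 with a positive difference. Leaving out imatinib array 1 ended the calls of Prmt1 on A_55_P2021821 (adjusted p = 0.0715), Prmt3 (0.0578) and Prmt6 (0.0542). Leaving out imatinib array 2 ended those of Prmt1 on the same probe (0.0702) and Prmt3 (0.0802).

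**Figure D2:**
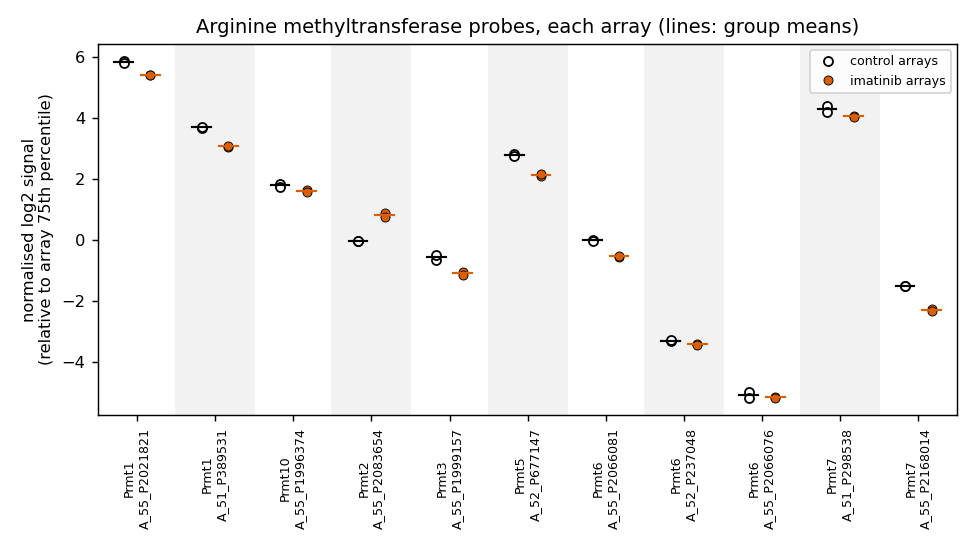
Normalised log2 signal of the 11 tested Prmt probes on each array (open circles control, filled circles imatinib, lines group means; the axis is relative to the 75th percentile of each array). The imatinib points lie below the control points for 9 probes, above them for Prmt2, and overlap for 1 Prmt6 probe, A_55_P2066076.

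Among the deacetylases of the Hdac class 1 of 14 tested probes was higher and 1 was lower, with a median difference of -0.02. Either share was 7.14%, against 19.3% higher and 22.5% lower of all probes. Hdac9, a class IIa enzyme that shuttles between nucleus and cytoplasm and binds MEF2 factors, had the largest rise of all members. It stood at 0.16 and 0.12 with imatinib and at -0.95 and -0.91 without, a 2.10-fold rise (log2 difference 1.07, SE 0.06, adjusted p = 0.0016). The 2 groups lay far apart beside the spread within either. With median centring the difference was 0.88 and with spike-in scaling 0.79, both short of 2-fold. Hdac8, an X-linked class I enzyme, was lower on A_52_P464062, at -2.11 and -2.00 against -1.74 and -1.80 (difference -0.28, SE 0.07, adjusted p = 0.0395). That call was lost without any 1 of the 4 arrays (adjusted p = 0.0818 to 0.195). Its other probe differed by -0.78 (SE 0.39, adjusted p = 0.185), with control array 2 at -1.76 and control array 1 at -2.85.

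The class I enzymes Hdac1, Hdac2 and Hdac3, catalytic cores of the NuRD, Sin3 and NCoR complexes, did not pass the test. Hdac1 on A_66_P128384 was at 3.32 and 3.37 against 3.50 and 3.54 (difference -0.18, SE 0.06, adjusted p = 0.0862), with no overlap between the groups, and on A_55_P2077608 it differed by -0.21 (adjusted p = 0.056). The Hdac1 probe left out for a flagged spot read 5.18 on imatinib array 1 against 5.27 and 5.21. Hdac2 was at -3.60 and -3.51 against -3.54 and -3.42 (difference -0.07, SE 0.08), and Hdac3 was at -0.21 and -0.27 against -0.18 and -0.31 (difference 0.00, SE 0.08). The groups overlapped for both. Of the class IIa relatives of Hdac9, Hdac7 was at 4.30 and 4.21 against 4.06 and 4.03 (difference 0.21, SE 0.07, adjusted p = 0.0694), while Hdac4 and Hdac5 differed by 0.19 and 0.11. None of these 3 was called. Hdac6 and Hdac10 had 2 uncalled probes each, between -0.13 and 0.11, and Hdac11 was above background on no array.

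The sirtuins, deacetylases that consume NAD, held 2 higher probes and 1 lower among 10, with a median of 0.00. Sirt3, the main deacetylase of mitochondria, was at 1.03 and 0.99 with imatinib and at 0.62 and 0.55 without, or 1.35-fold higher (log2 difference 0.43, SE 0.06, adjusted p = 0.0117). Sirt2, a mostly cytoplasmic enzyme that acts on tubulin and histone H4, was at 1.44 and 1.43 against 1.21 and 1.16 (difference 0.25, SE 0.06, adjusted p = 0.0349). Both genes were above both controls on both imatinib arrays, but the Sirt2 difference fell to -0.03 under spike-in scaling and the Sirt3 call was lost under it (adjusted p = 0.222) and under median centring (0.0758). Sirt3 was also lost without imatinib array 1 (adjusted p = 0.0802) or 2 (0.0697), and Sirt2 without any 1 array (0.0619 to 0.172). Sirt7, a nucleolar enzyme, was lower on A_55_P2045697 (difference -0.23, SE 0.06, adjusted p = 0.0483) but was lost without any 1 array (0.0877 to 0.234), and its other probe differed by -0.10. Sirt1, the founding nuclear member, was at 0.89 and 0.77 against 0.82 and 0.88, with overlapping groups and a difference of -0.02 (SE 0.07). Sirt4, Sirt5 and Sirt6 lay between -0.05 and 0.13 and were not called.

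Lysine demethylases changed in both directions, with 4 of 20 tested probes higher and 4 lower and a median of -0.01. Kdm6b and Kdm6a both erase methyl groups from lysine 27 of histone H3, the mark that Ezh enzymes place, and they moved apart. Kdm6b, which immune stimuli induce, was at 0.23 and 0.28 with imatinib and at -0.72 and -0.79 without, a 2.01-fold rise (log2 difference 1.01, SE 0.06, adjusted p = 0.0022). With median centring the Kdm6b difference was 0.82 and with spike-in scaling 0.73, both short of 2-fold. Kdm6a, its X-linked relative, was at -0.73 and -0.70 against -0.34 and -0.37 (difference -0.36, SE 0.06, adjusted p = 0.0141). The Kdm6a call was lost without imatinib array 1 (adjusted p = 0.0979) or imatinib array 2 (0.0844). Kdm3a, which removes methyl groups from lysine 9 of histone H3, was 1.55-fold higher at 1.12 and 1.08 against 0.45 and 0.49 (difference 0.63, SE 0.06, adjusted p = 0.0049). Its relative Kdm3b was at -1.34 and -1.41 against -1.34 and -1.40, a difference of 0.00.

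Kdm4d, a testis-rich enzyme for the same lysine, had the largest fall of all members. It stood at -4.68 and -4.47 with imatinib and at -3.50 and -3.46 without, or 2.13-fold lower (log2 difference -1.09, SE 0.09, adjusted p = 0.0039). With normexp background correction, which here also adds an offset of 50 to the signals, the difference shrank to -0.41. The parts of the subtraction and of the offset in that change were not tested. Kdm4b was at 1.33 and 1.37 against 1.02 and 1.01 (difference 0.34, SE 0.06, adjusted p = 0.0168), and Kdm5b, which acts on lysine 4, was higher by 0.27 on A_55_P2065449 (SE 0.06, adjusted p = 0.0361). Both of these calls were lost under median centring (adjusted p = 0.213 and 0.531) and spike-in scaling (0.623 and 0.943), where Kdm5b turned to -0.01. Kdm4b was also lost without imatinib array 1 (0.0925), imatinib array 2 (0.115) or control array 2 (0.0573), and Kdm5b without any 1 array (0.0914 to 0.193).

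Of the flavin-dependent demethylases, Kdm1b was at 0.34 and 0.26 against 0.73 and 0.77, or 1.37-fold lower (difference -0.45, SE 0.06, adjusted p = 0.0112), and was lost without imatinib array 1 (0.058) or 2 (0.0766). Kdm1a, the LSD1 enzyme of the CoREST complex, was at 2.79 and 2.67 against 2.89 and 2.85 (difference -0.14, SE 0.07, adjusted p = 0.19). Kdm2b, a CpG island binding protein, was lower on A_55_P2065154 (difference -0.26, SE 0.06, adjusted p = 0.0299), a call lost without any 1 array (0.074 to 0.176), and differed by 0.03 on A_55_P2065149. Kdm2a, Kdm4a, Kdm4c, Kdm5a, Kdm5c and a second Kdm5b probe were not called, with differences from -0.23 to 0.75. The 0.75 belongs to a Kdm4a probe on which imatinib array 1 read -3.90 and the other arrays -5.12, -5.39 and -5.11. Kdm4dl and, in these female mice, the Y-linked Kdm5d were above background on no array, and a second Kdm3b probe was on 1 array only.

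DNA methyltransferases had 1 of 6 tested probes called, in the lower direction (16.7%, against 22.5% of all probes), and a median of -0.03. Dnmt1, which copies methylation onto the new strand after DNA replication, was at 1.27 and 1.34 with imatinib and at 1.53 and 1.58 without (log2 difference -0.25, SE 0.06, adjusted p = 0.0446). Its call was lost under quantile normalization (adjusted p = 0.0885) and without any 1 array (0.0772 to 0.222). The de novo enzymes did not pass. Dnmt3a was at 0.52 and 0.46 against 0.51 and 0.53 (difference -0.03, SE 0.06), the 3 Dnmt3b probes differed by 0.07, -0.02 and -0.06, and the cofactor Dnmt3l by 0.19 (SE 0.14). The groups overlapped for all 5 of these probes. The first Dnmt3b probe read 0.68 and 0.56 against 0.62 and 0.48, the second -0.98 and -0.90 against -0.87 and -0.96, and the third -1.55 and -1.58 against -1.58 and -1.43.

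Both Ezh genes had positive differences on all 4 of their probes, except that Ezh2 was at -0.03 under spike-in scaling. Ezh2 is the catalytic subunit of Polycomb repressive complex 2 in dividing cells, germinal centre B cells among them, and Ezh1 is its counterpart in resting cells. Ezh1 was at 2.62 and 2.72 with imatinib and at 1.89 and 1.89 without on A_55_P2082869, or 1.71-fold higher (log2 difference 0.78, SE 0.07, adjusted p = 0.0042). On A_55_P2155942 it was at 0.53 and 0.67 against 0.03 and -0.02 (difference 0.60, SE 0.08, adjusted p = 0.0091), a call lost without imatinib array 2 (0.0537). On the third probe the difference was 0.71, but the SE of 0.26 left it uncalled (adjusted p = 0.0983). Ezh2 was at 3.69 and 3.60 against 3.45 and 3.34 (difference 0.25, SE 0.07, adjusted p = 0.06), without overlap but short of the threshold. Under spike-in scaling the median of the 4 probes was 0.37, and the 2 Ezh1 calls held.

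**Figure D3:**
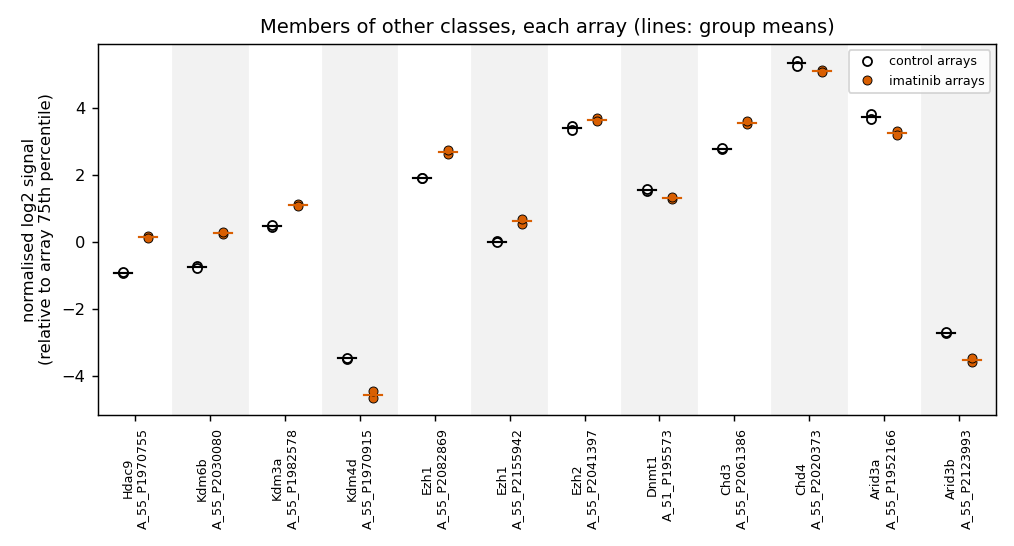
Normalised log2 signal on each array (open circles control, filled circles imatinib, lines group means; the axis is relative to the 75th percentile of each array) for 12 probes of the Hdac, Kdm, Ezh, Dnmt, Chd and Arid classes. Hdac9, Kdm6b, Kdm3a, Ezh1 and Chd3 lie higher on both imatinib arrays, and Kdm4d, Dnmt1, Arid3a and Arid3b lie lower.

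The Smarc class, mostly subunits of the SWI/SNF (BAF) complexes, had a negative difference on 15 of 19 tested probes and a median of -0.16. Among all probes tested, 50.1% had a positive difference. Of the 19, 5 (26.3%) were called lower, near the 22.5% of all probes, and 1 (5.26%, against 19.3%) was called higher. With single arrays left out, 0 to 3 were called lower. By gene, 2 of 13 were lower. Smarcc1, a scaffold subunit, was lower on all 3 of its probes. It read 1.82 and 1.87 against 2.21 and 2.19 on A_55_P2131153 (difference -0.36, SE 0.06, adjusted p = 0.0154), the probe with the repeat shown in capitals. It read -1.27 and -1.25 against -1.03 and -1.03 on A_55_P1984622 (difference -0.23, SE 0.06, adjusted p = 0.0379). On A_52_P312837 it read -2.99 and -2.87 against -2.50 and -2.54 (difference -0.41, SE 0.07, adjusted p = 0.0168), which normexp correction reduced to -0.27. The groups lay apart on each probe. Over the whole array, the 16 tested probes with a TC run of at least 12 bases had a median of -0.27 and 0 were higher, and the part of the repeat in the value of A_55_P2131153 was not tested. The 2 other Smarcc1 probes hold no such run. Each call was lost without imatinib array 1 (adjusted p = 0.105, 0.198 and 0.0964, in the same order), imatinib array 2 (0.0845, 0.176 and 0.062) and control array 2 (0.0505, 0.0967 and 0.0554), and the last 2 without control array 1 (0.0837 and 0.0574).

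Smarca4 (BRG1) and Smarca2 (BRM) are the alternative ATP-driven motors of these complexes. Smarca4 was at 4.93 and 4.92 against 5.21 and 5.07 on A_55_P2154684, a difference of -0.21 (SE 0.08, adjusted p = 0.0908) with no overlap. On A_55_P2154690 it was at 0.21 and 0.29 against 0.80 and 0.78, or 1.46-fold lower (difference -0.54, SE 0.06, adjusted p = 0.0078), a call lost without imatinib array 1 (0.0558). Smarca2 was at -0.85 and -0.99 against -1.17 and -1.21 (difference 0.27, SE 0.08, adjusted p = 0.0572). The 2 motors thus differed in sign, but Smarca2 was not called and was -0.01 under spike-in scaling. Smarce1, a DNA-binding subunit, was at 2.72 and 2.72 against 2.97 and 3.02 on A_55_P1989885 (difference -0.28, SE 0.06, adjusted p = 0.0285) and differed by -0.05 on A_55_P2026291. That call was lost under quantile normalization (difference -0.17, adjusted p = 0.0866) and without any 1 array (0.0543 to 0.154).

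Smarca5 and Smarca1 are the motors of the ISWI complexes, which space nucleosomes. Smarca5 was at 2.36 and 2.28 against 2.43 and 2.25, with overlapping groups and a difference of -0.02 (SE 0.09). Smarca1 was the 1 higher Smarc probe, and it was well above background on both imatinib arrays and on neither control array. It read -5.81 and -5.89 against -6.67 and -6.59 (adjusted p = 0.0042, for a probe that was tested only because the imatinib arrays passed the filter). Set against the higher of the lowest signal called well above background and its own signal on each control array, it was at least 1.45-fold higher, and with normexp correction its difference was 0.21. Its other probe was above background on no array. The core subunits Smarcb1, Smarcc2, Smarcd1, Smarcd2 and Smarcd3 were not called, with differences from -0.31 for Smarcd2 (adjusted p = 0.0531) to 0.00 for Smarcc2, nor were the lone motors Smarcad1 and Smarcal1, from -0.20 to 0.06.

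**Figure D4:**
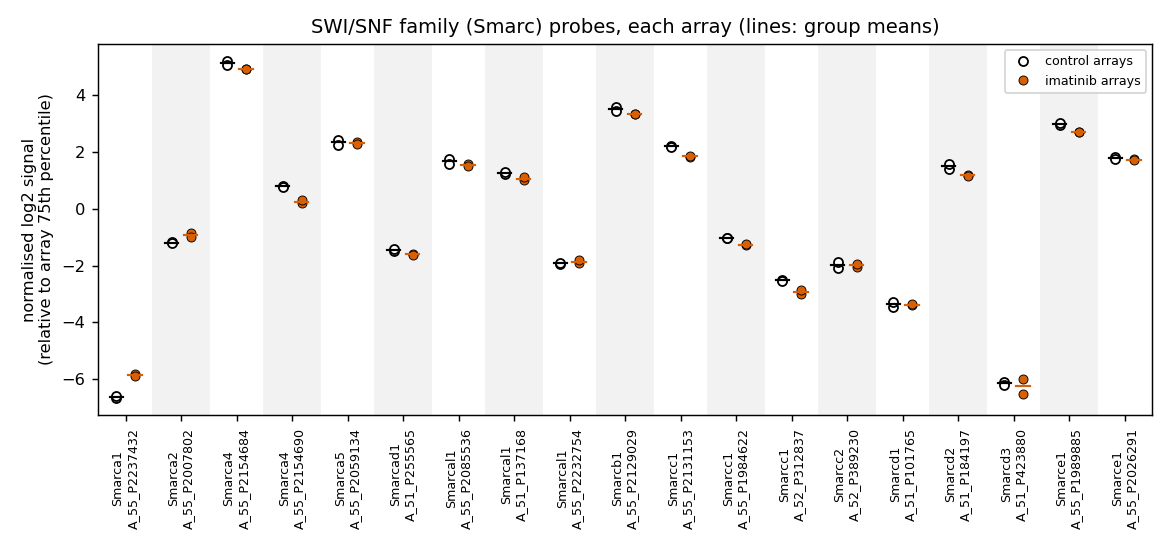
Normalised log2 signal of the 19 tested Smarc probes on each array (open circles control, filled circles imatinib, lines group means; the axis is relative to the 75th percentile of each array). The imatinib points lie below the control points on all 3 Smarcc1 probes and both Smarca4 probes, and above them for Smarca1 and Smarca2.

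The Chd remodellers had 3 higher probes and 1 lower among 14, or 21.4% and 7.14%, against 19.3% and 22.5% of all probes. Their median was 0.15, or -0.04 with median centring and -0.13 with spike-in scaling. Chd3 and Chd4 are alternative motors of the NuRD complex, which joins remodelling to Hdac1 and Hdac2. Chd3 was at 3.52 and 3.59 with imatinib and at 2.75 and 2.79 without, a 1.72-fold rise (log2 difference 0.78, SE 0.06, adjusted p = 0.0035). Chd4 was at 5.13 and 5.07 against 5.40 and 5.26 (difference -0.23, SE 0.08, adjusted p = 0.0844), so its groups did not overlap but it was not called. Chd5, the neuronal relative, was at -4.64 and -4.93 against -5.83 and -5.34 (difference 0.80, SE 0.21, adjusted p = 0.0443). The Chd5 call was lost under quantile normalization (0.145), median centring (0.0609) and spike-in scaling (0.0851) and without imatinib array 1 (0.144), imatinib array 2 (0.0791) or control array 1 (0.085), and normexp correction reduced its difference to 0.34.

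Chd7, a remodeller of enhancers, was at 2.68 and 2.68 against 3.08 and 3.02, or 1.29-fold lower (difference -0.37, SE 0.06, adjusted p = 0.015). That call was lost without imatinib array 1 (0.0944) or imatinib array 2 (0.0953). Chd2 was at 1.47 and 1.40 against 1.08 and 1.10 on A_55_P2175469 (difference 0.35, SE 0.06, adjusted p = 0.018), while its 3 other probes were not called and lay between -0.12 and 0.25. The Chd2 call was lost with median centring (0.232), with spike-in scaling (0.588) and without any 1 array (0.0562 to 0.115). Chd1, Chd1l, Chd6, Chd8 and Chd9 were not called, from -0.30 for Chd1l to 0.22 for Chd1.

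The Arid genes share an AT-rich DNA binding domain and fall into subunits of BAF (Arid1), of PBAF (Arid2) and of Sin3 complexes (Arid4), and into B cell and other transcription factors (Arid3, Arid5). Of 18 tested probes 2 were higher and 4 were lower, or 11.1% and 22.2%, against 19.3% and 22.5% of all probes. The class median of 0.06 was negative under quantile normalization (-0.04), median centring (-0.13) and spike-in scaling (-0.22). Arid3a, known as Bright, binds the immunoglobulin heavy chain locus in activated B cells. It was at 3.31 and 3.19 with imatinib and at 3.80 and 3.67 without on A_55_P1952166, or 1.40-fold lower (difference -0.49, SE 0.08, adjusted p = 0.0168), and differed by -0.26 on A_55_P2182358 (SE 0.09, adjusted p = 0.0817). The imatinib arrays were below the controls on both probes. The call was lost without imatinib array 1 (0.0601), imatinib array 2 (0.0903) or control array 1 (0.0518).

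Arid3b, a close relative of Arid3a, was lower on 2 of 3 probes. It read 1.12 and 1.07 against 1.47 and 1.42 on A_51_P161554 (difference -0.35, SE 0.06, adjusted p = 0.0177), a call lost without any 1 array (0.0505 to 0.116). It read -3.60 and -3.46 against -2.73 and -2.70 on A_55_P2123993 (difference -0.81, SE 0.07, adjusted p = 0.0045), reduced to -0.44 by normexp correction. The third probe differed by -0.15 and was not called. Arid1a, the most common BAF subunit of its kind, was at 2.25 and 2.12 against 2.13 and 2.23 on A_55_P2167769, a difference of 0.00 with overlapping groups. On A_66_P116888 it was at 0.51 and 0.53 against 0.79 and 0.76 (difference -0.25, SE 0.06, adjusted p = 0.0324), a call lost without any 1 array (0.0729 to 0.173).

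Arid4b was at -1.38 and -1.44 against -1.69 and -1.83 (difference 0.35, SE 0.08, adjusted p = 0.029). Arid1b was higher on 1 of 3 probes, A_55_P2103657, by 0.44 (SE 0.11, adjusted p = 0.038), which normexp correction reduced to 0.28, while the others differed by 0.17 and 0.13. Both higher calls were lost with median centring (adjusted p = 0.208 and 0.0732), with spike-in scaling (0.564 and 0.203) and without imatinib array 1 (0.143 and 0.102), imatinib array 2 (0.107 and 0.154) or control array 2 (0.0791 and 0.0793), and Arid1b also under quantile normalization (0.0508). Arid2, Arid4a, Arid5a and Arid5b were not called, with differences from -0.09 to 0.37. Arid3c and 1 Arid2 probe were above background on no array.

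Few genes had more than 1 called probe, namely Prmt1, Smarcc1, Ezh1 and Arid3b, and only these could be called in opposite directions. Of 29 genes with 2 or more tested probes, 0 had probes called in opposite directions, 2 had every probe called the same way (Prmt1 and Smarcc1), 14 had called and uncalled probes side by side, and 13 had no called probe. At the level of differences, 7 of the 29 genes had both signs. The files do not say which transcripts a probe reads, so a difference between the probes of 1 gene is given as measured.

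**Figure D5:**
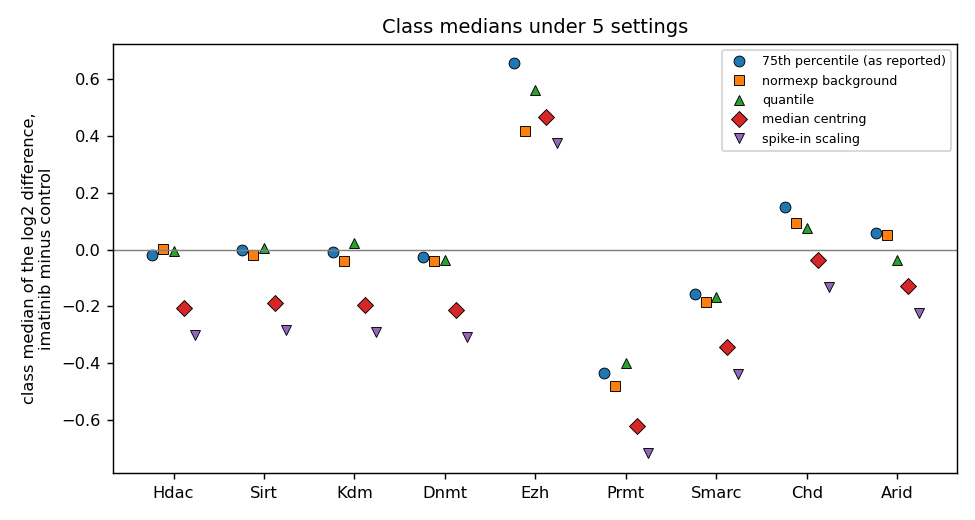
Median log2 difference (imatinib minus control) of the tested probes of each class under 5 settings. The Prmt, Smarc and Dnmt medians lie below 0 and the Ezh median above 0 under all 5; the medians of the other 5 classes change sign between settings.

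The partners of these enzymes were read from 6 lists of 121 genes, 117 of them tested with 1 probe each: 17 were higher (14.5%) and 31 were lower (26.5%), with a median of -0.05. Together these are 41.0%, against 41.9% of all probes (19.3% higher and 22.5% lower), so the share called was near that of the array. With single arrays left out these counts ranged from 5 to 13 higher and from 3 to 23 lower, and spike-in scaling gave 7 higher and 65 lower. Among 13 acetyltransferases, which oppose the deacetylases, 3 were higher and 2 lower. Kat6b was higher by 0.56 (adjusted p = 0.0081) and Ncoa1 by 0.52 (0.0257), whereas the differences of Hat1, which acetylates new histones, and of Kat2a were -0.57 (0.0094) and -0.36 (0.0266). Of 27 genes listed as lysine methyltransferases 4 were higher and 5 lower, with Setdb1 at -0.68 (0.0091) and Smyd5 at -0.64 (0.0043). The 2 largest rises, Ehmt1 at 1.95 and Suv39h2 at 1.66, came from probes with runs of 10 and 12 bases of a TG repeat. Probes with such a run of at least 12 bases were higher in 105 of 109 cases on the whole array, with a median of 1.90, and the part of the repeat in these 2 values was not tested. The list also holds Carm1, an arginine methyltransferase that belongs with the Prmt genes by function, which was lower by the same test (difference -0.26, adjusted p = 0.0323) on a probe with a 12-base CA run.

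Polycomb partners of Ezh1 and Ezh2 had 5 higher and 5 lower among 23. Phf1 (0.86, adjusted p = 0.0054) and Pcgf2 (0.71, 0.0138) were higher, and Pcgf6 (-0.75, 0.0085) and Pcgf3 (-0.47, 0.0282) were lower. Of 19 deacetylase complex partners 1 was higher and 4 were lower, with a median of -0.15. Rcor1 was higher by 0.23 (0.0426; -0.05 with spike-in scaling) and its relative Rcor2 differed by -0.78 (0.0078), both being scaffolds for Kdm1a, and Sap30 of the Sin3 complex differed by -0.43 (0.0097). Remodeller partners split 2 higher and 8 lower among 24, with Dpf1 at 1.00 (0.0023), Ercc6 at 0.51 (0.0228), the actin-like subunit Actl6a at -0.57 (0.0068) and the ATPase Ruvbl2 at -0.52 (0.0093). DNA methylation partners had 2 higher and 7 lower among 11, with a median of -0.27. Tet2, which oxidises methylcytosine, was higher by 0.50 (0.0088) and Mbd1 by 0.28 (0.0372), while Tdg, which excises the oxidised base, was at -0.86 (0.0038) and Zbtb33 at -0.51 (0.0112).

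The series names E2A, a factor that binds E-boxes, so promoters were read on either strand for the E-box letters CAGGTG, for a second E-box, CACGTG, and for the E2F letters TTTCCCGC or TTTGGCGC. RefSeq promoter windows of 300 bases (GRCm38.p6) were at hand for 65 of the 82 genes, 90 windows in all. CAGGTG stood in 17.8% of these windows, against 20.2% of all 32851 windows, in 2 of 23 windows of genes called lower and in 2 of 16 of genes called higher. CACGTG stood in 8.89% against 7.15% of all, in 3 of the 23 and in 0 of the 16. Either E2F form stood in 5 of the 90 windows (5.56%) against 1.56% of all, in 2 of the 23 and in 0 of the 16. Of the 46 windows of genes tested but not called, 9 held CAGGTG, 5 held CACGTG and 3 (6.52%) held either E2F form. These shares rest on few windows and were not tested. A match is a run of letters and not a binding site.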

How the data were processed

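RNA of 4 splenocyte samples, 2 with and 2 without imatinib, was measured on 1-colour arrays of 1 slide. The controls had slide positions 1 and 3, and the treated samples 2 and 4. Per the file headers, the authors ran Feature Extraction 9.1.3.1 on the scanned images to get the deposited intensities, with the background subtracted and no scaling from array to array. A value table in log2 units was also deposited, which the authors computed in GeneSpringGX per the series' design text. The medians of its columns were -4.00 and -3.92 (imatinib) and -4.10 and -4.17 (control). Up to a constant for each array its values lay within 0.01 of the log2 intensities for 99.88% to 99.93% of probes, and it served as an alternative. The build behind the array's design is not given in the sources used here.

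From the scanner files, control and flagged spots were left out, spots of a probe were averaged as log2, and the array's 75th percentile (699, 678, 739 and 854 for imatinib 1 and 2 and control 1 and 2) was subtracted. On these arrays the probes marked as well above background numbered 25192, 26762, 25336 and 25018, and no spot was saturated. Arrays correlated at r = 0.998 and 0.997 within groups and 0.982 to 0.984 between groups, across probes. Of 25467 probes past the filter 92 were left out for a flagged value. Groups were compared with limma 3.58.1 in R 4.3.3 (lmFit, eBayes, two-sided; 2 residual and 2.05 prior degrees of freedom) at a Benjamini-Hochberg adjusted p under 0.05; all adjusted p-values in the text are from this test. The number of arrays limits the precision. The procedure was tested on simulated data.

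Members and lists were chosen with earlier results of these data known. Values on every array are given for 21 genes fixed by name and for up to 3 genes per class and direction with the largest called difference by their probe of highest mean signal; other probes complete the account of each class. Of list genes, up to 2 per list and direction are named, and Carm1 was added after its value was seen. A member above background in 1 group only is given as a bound. Of the 125 member probes, 121 were matched to RefSeq by accession and 4 by symbol. Alternatives were normexp background correction (offset 50), quantile, median and spike-in scaling (8 spike-in probes), the value table, 2 other filters, a trend and robust variance model, a block for the replicate number, leaving out each array, and genes in place of probes. The sequence of 1 probe is not reported here.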

Additional observations from a re-analysis of the deposited data

How the results depend on the processing

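Counts are given as higher / lower at an adjusted p under 0.05 and are 16 / 23 for members and 4905 / 5717 for all probes as reported. Only counts that moved by over 1.5 times are listed. With normexp correction, members were 36 lower, Hdac 4 lower, Ezh 4 higher, Smarc 2 / 9 and Chd 3 lower. Quantile normalization gave Hdac 2 higher and Dnmt 0 lower. Median centring gave 9251 lower over all probes, members 8 / 44, Hdac 4 lower, Sirt 0 / 2, Kdm 2 / 8, Smarc 11 lower, Chd 1 / 3, Arid 0 higher and partners 8 / 50. Spike-in scaling gave all probes 2802 / 11739, members 8 / 59, Hdac 7 lower, Sirt 0 / 4, Kdm 2 / 11, Dnmt 4 lower, Prmt 10 lower, Smarc 13 lower, Chd 1 / 4, Arid 0 higher and partners 7 / 65. The deposited value table gave Hdac 2 lower, as did testing only probes above background on all 4 arrays. Without the filter the counts were 2837 / 2134 over all probes, members 8 / 7, Hdac 0 lower, Sirt 0 / 0, Kdm 2 / 1, Dnmt 0 lower, Smarc 1 lower, Chd 1 / 0, Arid 0 / 1 and partners 7 / 9. The trend and robust variance model gave members 27 / 35, Hdac 3 / 3, Ezh 4 higher, Smarc 2 / 9, Chd 5 / 3 and Arid 5 higher. Counting genes in place of probes gave members 14 lower, Sirt 0 lower, Ezh 1 higher, Smarc 2 lower, Arid 1 / 2. Under spike-in scaling 35 of 116 member differences turned negative, most of them called under neither setting. Among member probes and the partner genes named above, some past the threshold under either setting changed sign. These were Sirt2, to -0.029, Sirt6 (A_55_P2072468) to -0.26, Kdm3b to -0.28, Kdm5b to -0.0095 and Rcor1 to -0.046. Partner genes not named were left out of this comparison. Median and spike-in scaling shift every difference by a constant; the cause of the other changes was not tested.

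The labels do not say whether the replicate numbers pair the samples. The deviations of same-numbered arrays correlated at -0.07, a value that cannot show whether the samples were paired. With the replicate number as a block the counts were 3509 lower over all probes, members 9 / 11, Hdac 0 lower, Sirt 1 / 0, Kdm 2 / 2, Dnmt 0 lower, Smarc 1 lower, Chd 1 / 0, Arid 0 / 2 and partners 20 lower; 19 of the 39 member calls were lost in that replicate block fit.

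With each array left out in turn, the lone array of a group being assumed to vary like the other group, all probes ranged over 2417 to 4708 higher and 1560 to 4183 lower, members over 8 to 15 and 5 to 15, and partners over 5 to 13 and 3 to 23. By class the ranges were Hdac 1 to 1 and 0 to 1, Sirt 0 to 1 and 0 to 0, Kdm 2 to 3 and 1 to 3, Dnmt 0 to 0 and 0 to 0, Ezh 1 to 3 and 0 to 0, Prmt 1 to 1 and 3 to 7, Smarc 1 to 1 and 0 to 3, Chd 1 to 2 and 0 to 1, and Arid 0 to 4 and 1 to 2. Of the 16 higher calls 9 were lost without some array, and of the 23 lower calls 18.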
